A study of Mus musculus with 12 samples.

Results

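The cytosolic ribosomal protein genes encode the protein part of the ribosomes that translate nuclear mRNAs. They were chosen by symbol among the genes named on the array: every symbol that starts with Rpl or Rps followed by a digit, the stalk genes Rplp0, Rplp1 and Rplp2, and Rpsa, without the kinases whose names begin with Rps6k and without numbered pseudogenes. This gave 86 of the 20018 named genes on the array, and all 86 passed the background filter, as part of 23124 genes and transcripts tested. Of the 86, 76 are ribosomal proteins proper, 46 of the large subunit and 30 of the small subunit. The other 10 match by symbol: the paralogs Rpl3l, Rpl7l1, Rpl10l, Rpl22l1, Rpl36al, Rpl39l and Rps27l, the transcribed pseudogene Rps4l, the retrogene Rps23rg1, and Rps19bp1, which encodes a protein that binds Rps19 and is no ribosomal protein.

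RNA came from alveolar macrophages, the resident phagocytes of the lung airspaces, that were sorted from lavage fluid of female C57BL/6 mice aged 8 to 9 weeks. The 4 genotypes, with 3 mice each, were wild type (WT), Bach1 knockout (Bach1 KO), Bach2 knockout (Bach2 KO) and knockout of both (DKO). Both genes encode repressors of transcription of one protein family, and the labels do not say which cells of the mice carry the deletions or how the alleles were made. Each of the 12 mice gave 1 single-colour Agilent array after amplification of the RNA.

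A ribosome is built from rRNA and one copy of most ribosomal proteins, so cells make these proteins in matched amounts, and their mRNAs are among the most abundant of any cell. Many of these mRNAs begin with a run of pyrimidines, the 5′ terminal oligopyrimidine tract, through which the mTOR pathway controls their translation. Several members have further roles in the cell: Rpl5 and Rpl11 bind Mdm2 and so stabilise p53 when ribosome assembly fails, and Rps6 is the substrate of the kinase S6K1.

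The starts of a few of these genes are shown because they are the sequence feature the family is best known for, and because they can be set beside the differences between genotypes. Each line holds 30 bases, 18 before the annotated start and 12 from it, 5′ to 3′ on the gene's strand, from RefSeq on GRCm38.p6. Capitals mark a C at the start with at least 4 pyrimidines after it. By the brightest probe of each gene, Rpl38, Rps21, Rps15a and Rps27 had large differences in Bach2 KO, and Rpl15 and Rps6 had smaller ones. Rpl37a and Rpl39l had large ones without such a tract at their annotated start.
Rpl38, chr11:114668562-114668591, plus strand: ggaagcggaagcctcgttCTTTCCCCgttc
Rps21, chr2:180257361-180257390, plus strand: acttaccgaggacccgccCTCCTgcccaat
Rps15a, chr7:118116136-118116165, minus strand: ccactctctttctgccatCTTCCCTCgccg
Rps27, chr3:90213637-90213666, minus strand: aggatttccgctttcgctCCTTTCCggcgg
Rpl15, chr14:18270975-18271004, minus strand: attgtgggagaaagccttCTTCCTTTCCTC
Rps6, chr4:86857356-86857385, minus strand: gttaagcggaagtcgggcCTCTTTTTCgtg
Rpl37a, chr1:72711242-72711271, plus strand: cacttccgctcgccggtctaaaaccgcgca
Rpl39l, chr16:10170210-10170239, plus strand: tagctcccaggcctttccggatttccggtg

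Of the 86 members, 65 had an entry among the RefSeq promoters, with 77 entries of 300 bases in all. A tract at the annotated start was found in 13 entries of 13 genes, which is 16.9% of the 77, against 2.51% of all 32851 promoter entries. Only a tract at the exact annotated base was counted, so an entry without one may have a tract at a nearby base. The motif CCGGAAG, the form bound by ETS family factors, stood in 35.1% of the entries of the family and in 8.86% of all, searched on both strands. The motif CACGTG, the E-box that Myc can bind, stood in 10.4% and 7.15%. TGAGTCA, the core of the sites that AP-1 and Bach proteins can bind, stood in 2.60% and 5.20%, in Rpl9 and Rpl22. These are matches of letters and were not tested for binding.

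All levels below are log2 signals minus the 75th percentile of the same array, so that 0 is the signal that 75% of the spots did not exceed. A difference is a difference of such levels, given with its SE, and the group values are means ± SD with n = 3. Because the choice of scaling mattered for this family, each main result is also given after quantile normalization, which forces the 12 arrays onto 1 distribution. It sets each value by its rank on the array, and Rps9, for one, then read 8.00 on all 3 DKO arrays. The family stands near the top of the ranks, so this step can remove part of a fall that the brightest probes share. Of the non-control spots, between 45.2% and 72.4% per array were well above background. Slide 1 held all WT and Bach1 KO arrays and replicates 1 and 2 of Bach2 KO. Replicate 3 of Bach2 KO was the single array of slide 2. Slide 3 held only DKO arrays, so DKO cannot be told apart from its slide. The Bach1 probe read 3.72, 4.28 and 3.77 in WT and 2.40, 2.55 and 2.53 in the arrays labelled Bach1 KO. One Bach2 probe lay below the background limit on all 12 arrays, and the other, at -2.42, -2.18 and -8.13 in WT and -5.29, -3.72 and -5.29 in Bach2 KO, did not separate the labels.

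In WT the family stood near the top of the signal range. The 76 ribosomal proteins proper had a median level of 7.51, from 0.36 for Rpl21 to 8.37 for Rps9, and 75 of them lay above 6. The median member lay at the percentile 99.4 ± 0.13 of its WT array, and the probes of the family took 6.25 ± 0.49% of the array's summed signal. The probes of Rps9, Rps16 and Rplp2 gave the 3 highest signals and those of Rpl10l, Rpl3l and Rps23rg1 the 3 lowest. Probes differ in how well they bind, so this order is one of probe signals and not of mRNA amounts.

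The family was lower in Bach2 KO than in WT. The median level over the 86 members was 7.69, 7.07 and 7.5 on the WT arrays and 6.14, 6.42 and 5.46 on the Bach2 KO arrays. It was 7.30, 6.73 and 7.52 on the Bach1 KO arrays and 6.52, 6.73 and 7.11 on the DKO arrays. All 3 Bach2 KO arrays lay below the other 9, with replicate 3 the lowest. After quantile normalization the Bach2 KO arrays read 6.65, 6.78 and 6.19, again the lowest 3, while the other 9 lay between 6.83 and 7.07. The share of the summed signal showed the same order: 4.56%, 5.04% and 3.43% in Bach2 KO, against 5.21% to 6.82% on the other arrays. In RNA from a bulk sample, fewer cells of a type and less RNA per cell cannot be told apart.

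**Figure D1:**
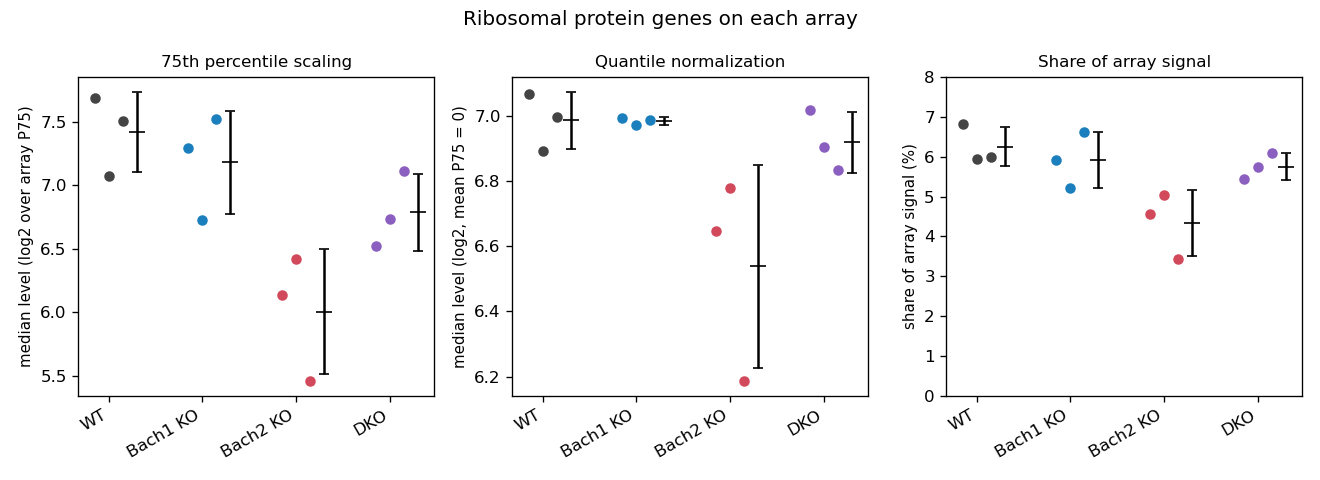
Median level of the 86 ribosomal protein genes on each array after 75th percentile scaling (left) and quantile normalization (middle), both log2, and the share of the array's summed signal taken by their probes in percent (right). Each point is 1 mouse, and bars show the mean and SD of 3 mice; the Bach2 KO arrays are the lowest 3 in each panel.

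Other properties of the Bach2 KO arrays differed from those of the WT arrays too. The 10 positive control probes of the array named E1A, which do not measure mouse genes, had a median of -0.88, -1.69 and -2.70 relative to the 75th percentile on the Bach2 KO arrays. The WT arrays read 5.26, 2.12 and 6.59, the Bach1 KO arrays 5.73, 3.08 and 5.46 and the DKO arrays 3.35, 1.09 and 3.07. On the Bach2 KO arrays these controls were thus below all other arrays, before scaling too, at 10.5, 9.38 and 8.89 against 12 to 17.1. The 75th percentile itself was 11.4, 11.1 and 11.6 (log2 signal) in Bach2 KO and 10.6, 10.8 and 10.6 in WT. It was 10.8, 11.1 and 10.5 in Bach1 KO and 11.4, 10.9 and 10.9 in DKO, and both of these ranges overlapped that of Bach2 KO. The part of these differences in the result was not tested.

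Cell type markers were read as a check of the labelled cell type. All 11 alveolar macrophage markers on the array were measured in every genotype, and their summed linear level relative to the 75th percentile was 1349 to 1763 in WT, 395 to 564 in Bach2 KO and 365 to 565 in DKO. Of the 11, 9 fell in Bach2 KO and 7 in DKO, among them Siglecf and Marco, where 24.7% and 16.6% of all genes were called lower. After quantile normalization 6 were lower in each, where 18.3% and 14.4% of all genes were, and 1 was higher in DKO. Of 6 dendritic cell markers, Flt3, Ccr7 and Dpp4 (not well above background in WT) rose in Bach2 KO. The sum of this list was 29.4 to 40.2 against 0.283 to 1.64 in WT, while Xcr1 was not well above background in either genotype. Of 6 T cell markers tested, Cd3g, Cd3d (not well above background in WT) and Lck rose and Cd2 fell in Bach2 KO, and the sum was 78.3 to 147 in WT and 13.9 to 15.6 in Bach2 KO. The same 3 dendritic cell genes and the same 4 T cell genes changed in DKO too. General macrophage markers summed to 210 to 257 in WT and 130 to 140 in Bach2 KO. B cell markers summed to 0.106 to 0.194 and 0.370 to 0.567, NK cell markers to 0.0964 to 0.129 and 0.122 to 0.158, and eosinophil markers to 0.0221 to 0.0360 and 0.0328 to 0.0396. Neutrophil markers summed to 7.88 to 15.8 and 3.53 to 8.42. Erythroid and platelet markers summed to 4.13 to 12.5 and 14.2 to 32.2, and epithelial markers to 13.3 to 16.1 and 20.6 to 23.4. Single genes went against these sums in Bach2 KO. The neutrophil gene S100a9 rose by 2.91 but did not pass after quantile normalization, and Hba-a1 fell by 1.62 while Pf4 and Ppbp rose. Of the epithelial genes, Epcam fell by 4.73 and Scgb1a1 by 2.13, while Cdh1 rose by 2.28. The part of such cells in the result was not tested.

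Gene by gene, 78 of the 86 members were lower in Bach2 KO than in WT at an adjusted p under 0.05 in limma's fit over all genes. Of all 23124 genes and transcripts, 24.7% were called lower. Only Rpl21 was called higher, where 12.4% of all genes were, and 7 members did not pass. The median difference of the members was -1.27, a 2.41-fold lower level, beside -0.30 over all genes tested. The groups did not overlap for 81 members in this direction, as for 33.4% of all genes. In the subunits, 44 of 46 large subunit proteins (median -1.32) and 28 of 30 small subunit proteins (median -1.19) were lower.

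The count depended on the scaling and on 2 arrays. After quantile normalization 24 members were lower, all of them among the 78, where 18.3% of all genes were called lower; 2 were higher, Rpl21 and Rps19bp1, where 15.7% were, and the median was -0.34 beside -0.13 over all genes. The groups then did not overlap for 39 members in the lower direction, as for 27% of all genes. With no scaling at all the members' median was -0.58 while that of all genes was 0.39, and 44 members were lower (9.36% of all genes) and 2 higher (20.7%). Without Bach2 KO replicate 3, 48 members were lower (17.1% of all genes) and 0 higher (8.87%), with a median of -0.99, and after quantile normalization without it 15 were (13% of all genes), with a median of -0.21. Without WT replicate 1, 50 members were lower (18% of all genes) and 0 higher (9.86%). On slide 1 alone, which holds no second slide, 46 members were lower, against 14.3% of all genes.

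**Figure D2:**
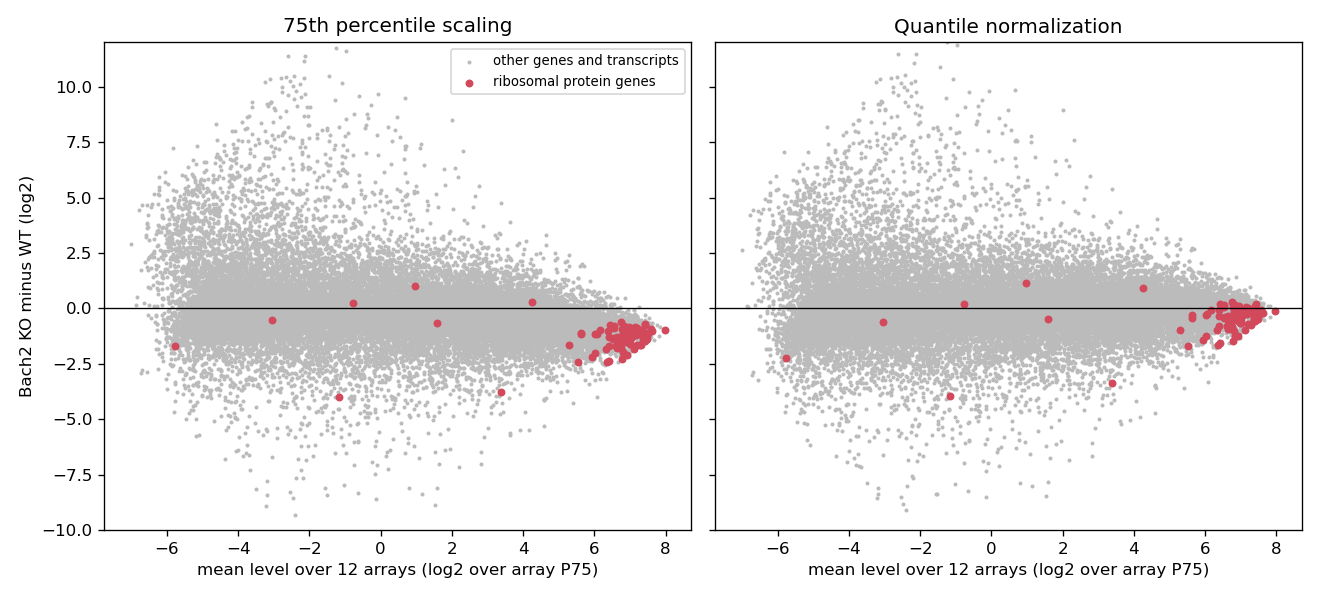
Difference between Bach2 KO and WT (log2) against the mean level over 12 arrays (log2 relative to the array's 75th percentile) for all genes and transcripts tested, with the ribosomal protein genes in red, after 75th percentile scaling (left) and quantile normalization (right); a few other genes lie beyond the ends of the vertical axis and are not drawn. Most members form a group at the right end of the level axis, and all 86 had a median of -1.27 on the left and -0.34 on the right.

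Among the ribosomal proteins proper, the difference ran from -2.44 to -0.63, apart from Rpl21. The lowest values belonged to Rpl38, Rps21, Rpl36, Rps29 and Rps15a, and the values nearest to 0 to Rpl5, Rps2, Rps3a1, Rpl3 and Rps7.

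Rpl38, a small protein of the large subunit that is needed for the translation of Hox mRNAs in the embryo, lies on chromosome 11 from 114667818 to 114672333 (GRCm38.p6). It read 7.65, 6.65 and 7.63 in WT, 7.25, 6.24 and 7.40 in Bach1 KO, 5.56, 5.75 and 3.29 in Bach2 KO and 6.42, 6.49 and 5.86 in DKO. All Bach2 KO arrays were below all others, and replicate 3 was more than 2 units below its group. The difference from WT was -2.44 ± 0.58 (5.43-fold, adjusted p = 0.00704), and -1.63 ± 0.54 after quantile normalization (adjusted p = 0.0371). Without replicate 3 it was -1.65, and after quantile normalization without it -0.84, which no longer passed.

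Rps21, a small subunit protein on chromosome 2, read 7.05, 6.04 and 6.53 in WT and 5.0, 4.61 and 2.77 in Bach2 KO. The groups did not overlap. The Bach1 KO arrays read 5.41, 5.31 and 6.64, with 2 of them between the WT and Bach2 KO arrays and 1 within the WT range. It fell by 2.41 in Bach2 KO against WT (SE 0.53, adjusted p = 0.0049) and by 1.69 after quantile normalization (adjusted p = 0.0186). Rpl36, a large subunit protein on chromosome 17, read 7.60, 6.68 and 7.52 in WT and 5.45, 5.57 and 3.65 in Bach2 KO, again with no overlap. Its difference was -2.37 ± 0.47 (adjusted p = 0.0029) and -1.57 ± 0.39 after quantile normalization (adjusted p = 0.0101). Both kept the call without replicate 3, at -1.73 for Rps21 and -1.75 for Rpl36. Rps29, a zinc-binding small subunit protein, read 7.91, 7.20 and 7.90 in WT and 6.09, 6.29 and 3.79 in Bach2 KO. It fell by 2.28 (adjusted p = 0.00827), while the value after quantile normalization was -1.45 (adjusted p = 0.0607), which did not pass. Rps15a passed at -2.18 ± 0.53, in a fit without Bach1 KO replicate 3, whose spot was an outlier. Rps25 passed at -2.0 ± 0.56 without WT replicate 3 for the same reason. Fitted by probe, another bright probe of Rps15a had -2.23. A dim one, at -7.23 in WT, had 4.30 in Bach2 KO and 4.41 in DKO, and passed in both. A probe was kept if it exceeded background in every array of some genotype. One this low in WT may have been kept through a group where it was high, which favours such a call.

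**Figure D3:**
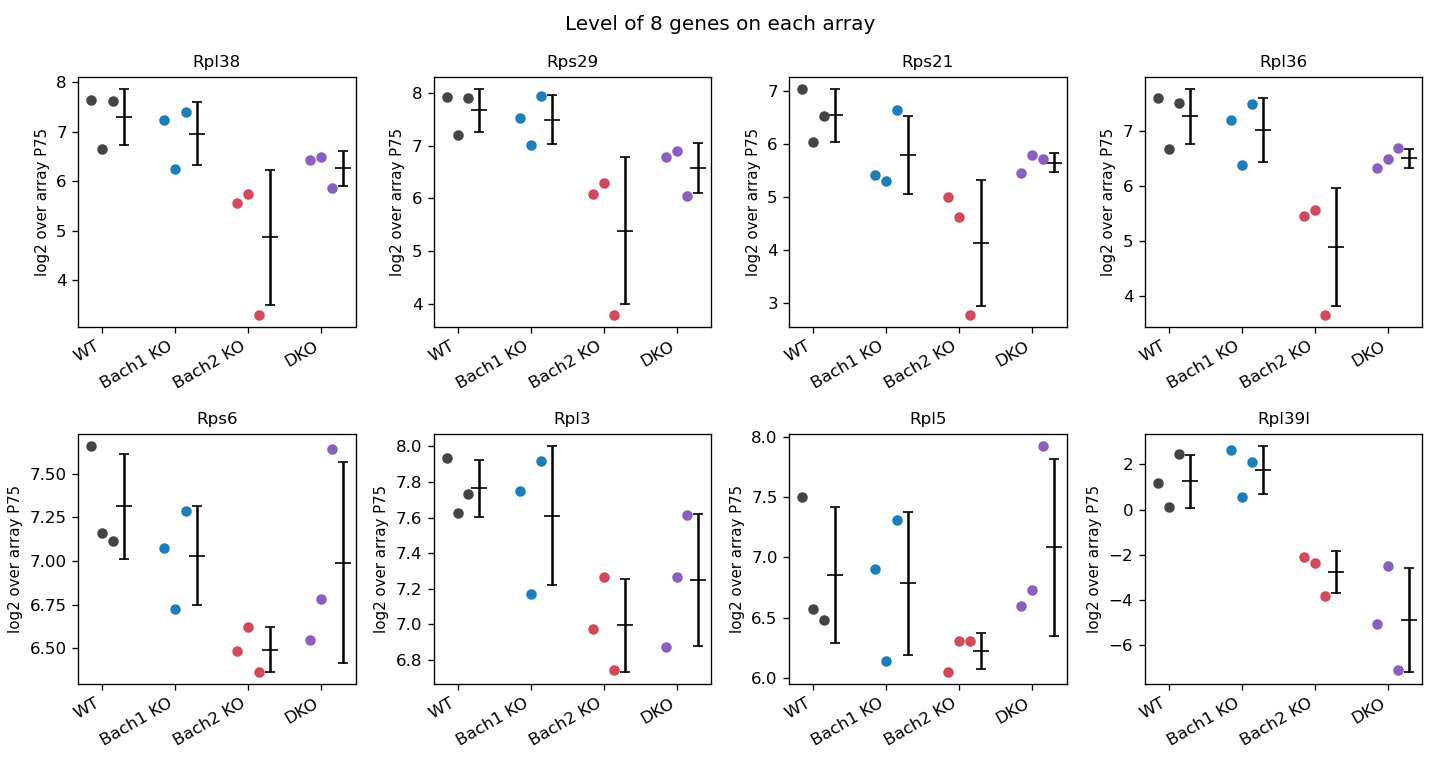
Level of 8 members on each array (log2 relative to the array's 75th percentile), with 1 point per mouse and the mean and SD of 3 mice beside them; the vertical axes differ between panels and do not start at 0. Rpl38, Rps29, Rps21 and Rpl36 had large differences in Bach2 KO with replicate 3 lowest, Rps6, Rpl3 and Rpl5 had differences near -0.8 or smaller in size that turned positive after quantile normalization, and Rpl39l was low in Bach2 KO and DKO.

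The stalk proteins Rplp0, Rplp1 and Rplp2 form the flexible arm of the large subunit that recruits elongation factors. Rplp0 read 7.82, 7.35 and 7.57 in WT and 6.59, 6.83 and 6.63 in Bach2 KO, with no overlap. It fell by 0.90 (SE 0.26, adjusted p = 0.0198), whereas after quantile normalization its difference was 0.01. Rplp1 and Rplp2 fell by 1.46 (adjusted p = 0.00425) and 1.39 (adjusted p = 0.00582), and both also passed after quantile normalization, at -0.56 and -0.49. Of the 3 stalk genes, Rplp0 alone changed sign with the scaling.

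Rpl5 and Rpl11, the proteins that bind Mdm2 together with 5S rRNA, differed in whether they passed. Rpl5 read 7.5, 6.58 and 6.49 in WT, 6.05, 6.31 and 6.31 in Bach2 KO and 6.60, 6.73 and 7.93 in DKO. The WT and Bach2 KO arrays did not overlap, but the gap between them was small, and the difference of -0.63 ± 0.40 (adjusted p = 0.237) did not pass; it was 0.30 after quantile normalization. Rpl11 read 8.16, 7.78 and 8.13 in WT and 7.03, 7.16 and 6.16 in Bach2 KO. It fell by 1.24 (adjusted p = 0.0125) and had a difference of -0.34 after quantile normalization (adjusted p = 0.0893). Whether the differences of the pair differ from each other was not tested.

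Rps6, the S6K1 substrate, read 7.66, 7.16 and 7.12 in WT and 6.49, 6.62 and 6.37 in Bach2 KO. It fell by 0.82 (SE 0.28, adjusted p = 0.0386), and the difference turned to 0.12 after quantile normalization. Another bright probe of Rps6, at 7.02 in WT, had -1.25 ± 0.23, near the family's median, and passed. A dim probe, at 3.99 in WT, had -0.22, which did not pass. The size of the Rps6 difference thus depends on the probe. Rpl3, which lines the peptidyl transferase centre, read 7.94, 7.62 and 7.73 in WT and 6.97, 7.27 and 6.74 in Bach2 KO. It fell by 0.77 (adjusted p = 0.0313), and the value was 0.11 after quantile normalization. Rpl13a, known as part of an inhibitor of inflammatory mRNA translation in myeloid cells, fell by 0.90 (adjusted p = 0.0424), with 0.07 after quantile normalization. These 3 genes were apart from WT without overlap before quantile normalization and overlapped WT after it.

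Of the other members with a known role, Rpsa, also called the laminin receptor, fell by 1.03 (adjusted p = 0.0123), and Rps3, which also acts in DNA repair, by 1.02 (adjusted p = 0.0419). Rps14 and Rps19, whose loss causes anaemia in patients, fell by 1.27 (adjusted p = 0.00715) and 1.16 (adjusted p = 0.0205), and Rpl10, which is needed for subunit joining, by 0.94 (adjusted p = 0.0133). Rps9 and Rps16 fell by 0.97 and 1.04. After quantile normalization these 7 lay between -0.36 and -0.05 and none passed. Rack1, a scaffold on the small subunit whose name is outside the rule, fell by 0.89 (adjusted p = 0.0218), and Fau, a small subunit protein that is made as a fusion, fell by 1.56 (adjusted p = 0.00453). After quantile normalization Rack1 had a value near 0 that did not pass, and Fau passed at -0.62. Of the genes described here, Rplp0, Rpl3, Rpl11, Rpl13a, Rps3, Rps6, Rps9, Rps16 and Rps19 lost the call without Bach2 KO replicate 3, and all of these except Rpl11 also without WT replicate 1.

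**Figure D4:**
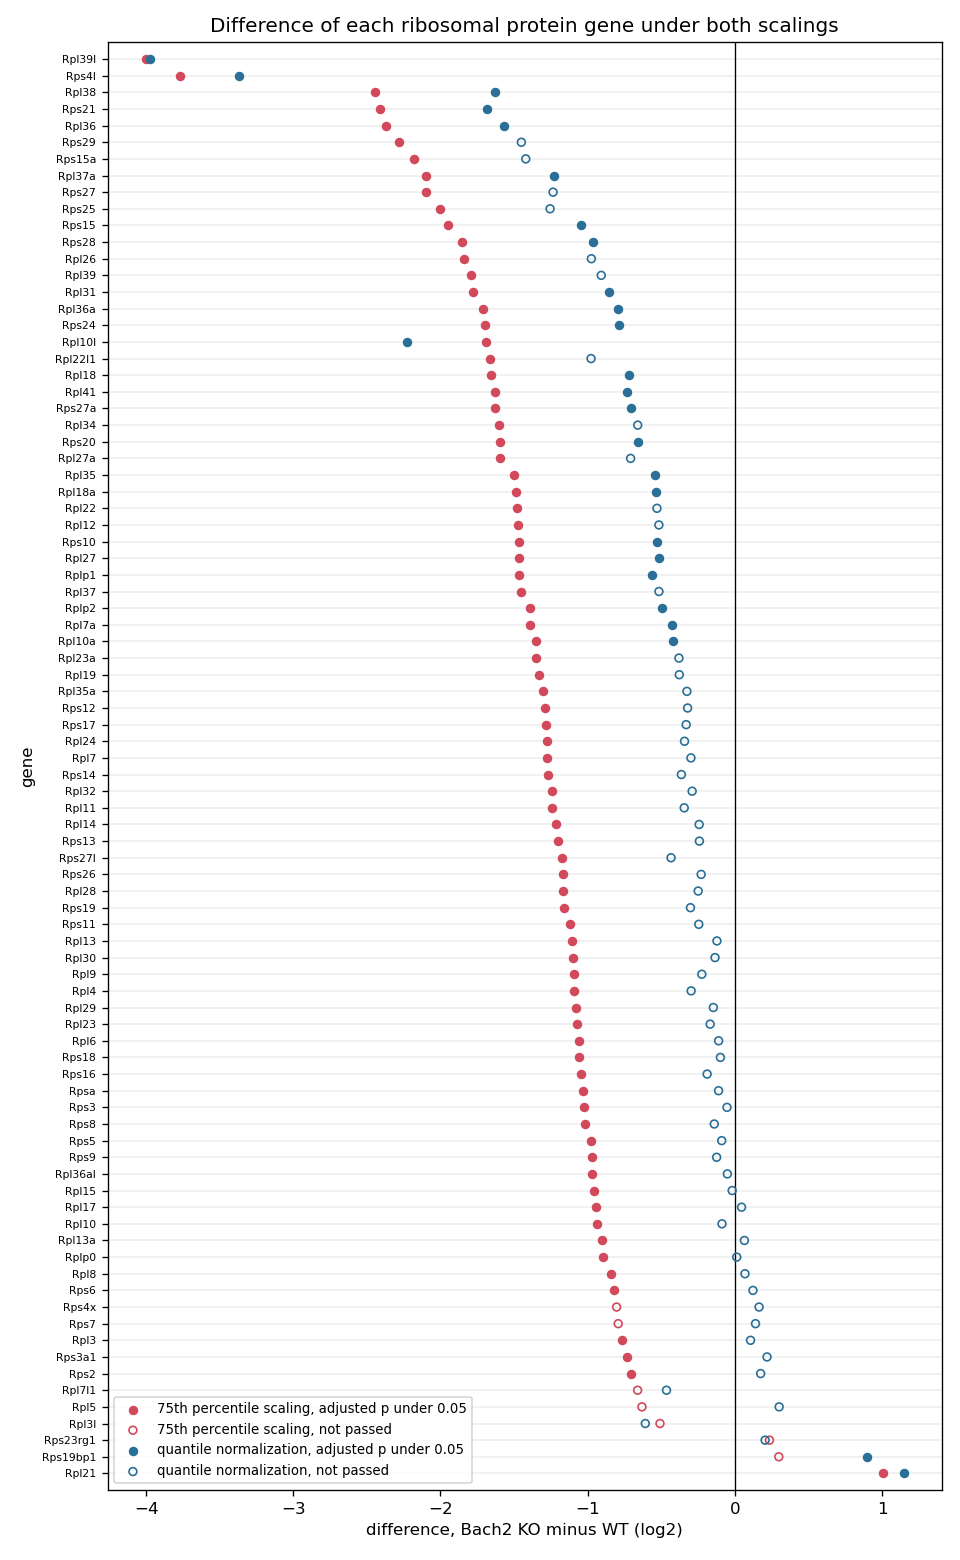
Difference between Bach2 KO and WT (log2) of each of the 86 members, ordered by its value after 75th percentile scaling (red) and shown again after quantile normalization (blue); filled points have an adjusted p under 0.05. With 75th percentile scaling 78 members were lower and 1 higher, and after quantile normalization 24 were lower and 2 higher, with 14 differences above 0.

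To see which members differed from the rest of the family, each array was also scaled to the median of the members, a step chosen after the values were seen. On this scale 7 members were lower in Bach2 KO, where 3.74% of all genes were: Rpl39l, Rps4l, Rpl38, Rps21, Rpl36, Rpl37a and Rps15. Their values were -2.59, -2.36, -1.03, -1.0, -0.96, -0.69 and -0.53. The 21 members that were higher than the family, where 45.4% of all genes were, included Rpl21 at 2.42, Rps2 at 0.71, Rps3a1 at 0.68, Rpl3 at 0.65, Rps4x at 0.61 and Rps6 at 0.60. These counts rested on few arrays. They were 2 lower and 8 higher without Bach2 KO replicate 3, and 2 and 9 without WT replicate 1. Without WT replicate 3 they were 3 and 9, and on slide 1 alone 3 and 5. The shares over all genes were not counted in these fits.

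Paralogs and other derived members were more varied. Rpl39l, a paralog of Rpl39 with high expression in the testis, lies on chromosome 16 from 10170197 to 10174911. It read 1.16, 0.12 and 2.47 in WT, 2.61, 0.54 and 2.10 in Bach1 KO, -2.09, -2.35 and -3.82 in Bach2 KO and -5.07, -2.51 and -7.10 in DKO. The arrays of the Bach2 KO and DKO groups lay below all WT and Bach1 KO arrays, and 1 of the 3 DKO arrays was not well above background. Its difference from WT was -4.0 ± 1.03 in Bach2 KO (16.0-fold, adjusted p = 0.0106) and -6.15 ± 1.03 in DKO (adjusted p = 0.000975). After quantile normalization these values were -3.97 and -6.03, and both passed. Rpl39 itself read 7.56, 7.42 and 7.04 in WT and 5.98, 6.46 and 4.21 in Bach2 KO and fell by 1.79 (adjusted p = 0.0123), with -0.91 after quantile normalization, which did not pass.

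Rps4l, a transcribed pseudogene related to Rps4x on chromosome 6, read 5.27, 4.83 and 5.46 in WT, 5.23, 3.85 and 4.60 in Bach1 KO, 1.41, 1.70 and 1.13 in Bach2 KO and 2.19, 1.91 and 3.09 in DKO. The Bach2 KO and DKO arrays were below all WT and Bach1 KO arrays. Its difference from WT was -3.77 ± 0.38 in Bach2 KO (13.7-fold, adjusted p = 2.93e-05) and -2.79 ± 0.38 in DKO (adjusted p = 0.000229). After quantile normalization these values were -3.37 and -2.46, and both passed. Rps4x had a difference of -0.80 ± 0.31 in Bach2 KO (adjusted p = 0.0592), which did not pass.

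Among the other pairs, Rpl22 (-1.48) and Rpl22l1 (-1.66), Rps27 (-2.10) and Rps27l (-1.17), and Rpl36a (-1.71) and Rpl36al (-0.97) were lower in Bach2 KO, and of these 6 only Rpl36a passed after quantile normalization. The calls of Rps27l and Rpl36al were lost without Bach2 KO replicate 3 or WT replicate 1. Rpl7 fell by 1.27 and Rpl7l1 had a value of -0.66 that did not pass. Rpl3l, a paralog of Rpl3 known from muscle, had -0.51 ± 0.70 in Bach2 KO, which did not pass. Rpl10l, the testis paralog of Rpl10, passed at -1.69 but was well above background on 3 WT arrays and only 1 Bach2 KO array. The filter kept its probe through WT alone, where it was highest, which favours a lower call. It is still counted among the members called lower. Rps23rg1 and Rps19bp1 did not pass, at 0.24 and 0.30, and Rps19bp1 rose by 0.90 after quantile normalization.

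Rpl21 was the only member called higher. It lies on chromosome 5 from 146832890 to 146837032, and its chosen probe was far dimmer than those of the other ribosomal proteins proper. It read -0.16, 0.50 and 0.74 in WT and 1.47, 0.82 and 1.80 in Bach2 KO, with a small gap between the groups. The difference was 1.01 ± 0.36 (adjusted p = 0.0449), and 1.15 after quantile normalization. Its second probe, at -2.37 in WT, had 0.58 ± 0.89, which did not pass. The call of Rpl21 was lost without any one of 8 arrays: replicates 1 and 2 of WT, Bach1 KO or DKO, and replicates 1 and 3 of Bach2 KO. Near-identical processed pseudogenes of ribosomal proteins are common in the mouse genome, and a probe may bind their transcripts too.

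Separate probes of a gene gave a check within the arrays. Of 51 members with more than 1 probe past the filter, 46 had only negative differences in Bach2 KO and 4 had differences of both signs. Of 136 probes of ribosomal proteins proper with a WT level above 6, 131 were lower and passed, with a median of -1.33. Of the 25 dimmer probes, 7 were lower and 2 higher, with a median of -0.60. The 2 higher ones were the chosen probe of Rpl21 and the dim probe of Rps15a, whose call the filter may have favoured. Over every probe on the array, 22% were called lower and 12.9% higher. In the 42 genes with at least 2 probes above 6, the differences of the 2 probes with the highest WT levels had a Pearson's r of 0.88 across genes, which share the same arrays, and the median spread between probes was 0.14. Rps24 had probes for 3 transcript accessions, with -1.70, -1.96 and -2.89.

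**Figure D5:**
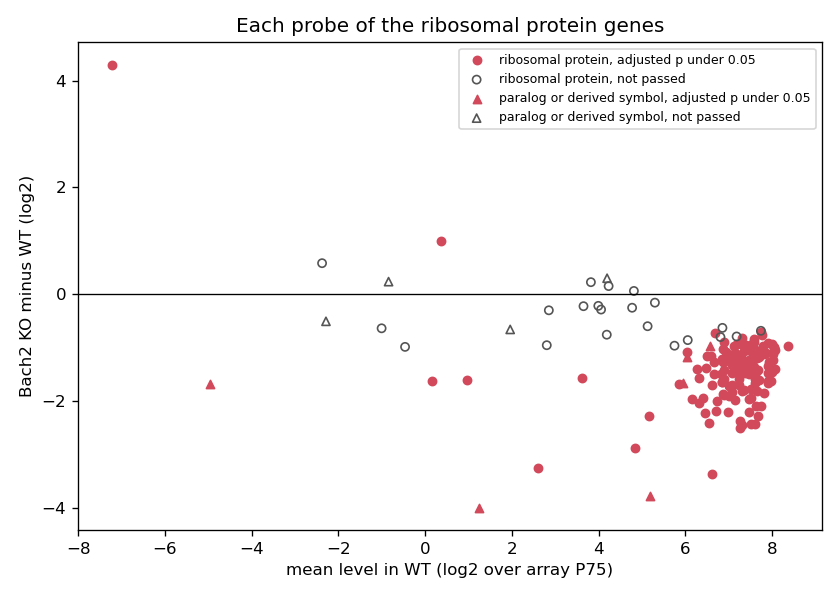
Difference between Bach2 KO and WT (log2) of each of the 171 member probes past the filter against its mean level in WT (log2 relative to the array's 75th percentile); circles are ribosomal proteins and triangles paralogs or derived symbols, and filled points have an adjusted p under 0.05. Above a WT level of 6, 131 of 136 circles are filled and below 0, while dimmer probes scatter on both sides of 0.

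In Bach1 KO against WT no member passed, in limma's fit, after 75th percentile scaling or quantile normalization. An unadjusted p under 0.05 was found for 2 members, and the share of all genes under that limit was not counted. Of all genes, 0.0432% were called lower and 0.0173% higher, and 0.0735% and 0.0432% after quantile normalization. The groups did not overlap for 2 members in the lower direction and 0 in the higher one, as for 4.28% and 2.51% of all genes, and after quantile normalization for 2 in each direction, as for 4.17% and 2.98%. The members' median difference was -0.24, beside -0.07 over all genes, and it was -0.01 after quantile normalization. Rpl38 had -0.34 ± 0.58, Rps6 -0.28 ± 0.28 and Rpl5 -0.07 ± 0.40. Bach1 KO replicate 2 was the lowest array of its group for each of these 3 genes, as WT replicate 2 was for Rpl38.

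In DKO against WT 4 members were lower, where 16.6% of all genes were called lower, and none was higher, where 10.6% were. They were Rpl39l and Rps4l, described above, with Rpl3l and Rpl27. Rpl3l read -1.79, -3.90 and -1.17 in WT and -4.27, -4.06 and -5.54 in DKO, where 2 of 3 arrays were well above background. The difference was -2.34 ± 0.70 (adjusted p = 0.0284), and the call was lost without WT replicate 1 or 3 or DKO replicate 1 or 3. Rpl27, a large subunit protein, read 7.78, 7.24 and 7.85 in WT and 6.20, 6.32 and 6.62 in DKO, with no overlap. It fell by 1.24 (SE 0.32, adjusted p = 0.0129) and by 0.66 after quantile normalization (adjusted p = 0.0133), and the call after 75th percentile scaling was lost without WT replicate 3.

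The members' median in DKO against WT was -0.58, beside -0.28 over all genes, and 18 members had an unadjusted p under 0.05. The share of all genes under that limit was not counted. The groups did not overlap for 34 members in the lower direction, as for 29.1% of all genes. After quantile normalization the groups did not overlap for 8 members in the lower direction, as for 26.1% of all genes. The median was then -0.02, and the same 4 members were called lower, where 14.4% of all genes were. The 2 called higher were Rpl5 (0.80) and Rps3a1 (0.45), where 12.1% of all genes were. The count of members lower was 2 without WT replicate 3 and 10 without WT replicate 2. It was 8 without Bach1 KO replicate 2 and 11 without Bach2 KO replicate 3, although neither of these arrays belongs to the groups compared. The shares over all genes were not counted in these fits. Rpl10l was higher in WT than in DKO by at least 0.50 on the log2 scale, being well above background on 3 WT arrays and on no DKO array. It did not pass the test, and the filter kept its probe through WT alone.

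In DKO against Bach1 KO, which holds the loss of Bach2 on a background without Bach1, the same 4 genes were lower, where 15.3% of all genes were called lower, and no member was higher, where 10.9% were. Rpl39l differed by -6.65 (adjusted p = 0.000583), Rps4l by -2.17 (adjusted p = 0.0015), Rpl3l by -2.17 (adjusted p = 0.0395) and Rpl27 by -1.10 (adjusted p = 0.0241). The calls of Rpl3l and Rpl27 were each lost without several single arrays, and 2 members were then lower. The members' median was -0.33, beside -0.21 over all genes. After quantile normalization the same 4 genes were lower, where 14.1% of all genes were. Rpl7a (0.41) and Rps3a1 (0.41) rose, where 12.7% of all genes were called higher, and the median was -0.05. The groups then did not overlap for 12 members in the lower direction, as for 27.2% of all genes. Bach2 KO against WT and DKO against Bach1 KO share no array. Across the 86 members their differences had a Pearson's r of 0.57, which was 0.26 without Rpl39l and Rps4l, beside 0.80 across all genes tested; the genes share arrays and are not independent.

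In DKO against Bach2 KO no member passed in limma's fit, where 1.45% of all genes were called higher and 2.11% lower. The members' median was 0.69, beside 0.03 over all genes, 81 differences were above 0, and 42 members had an unadjusted p under 0.05. The shares of all genes above 0 or under that limit were not counted, so these counts cannot be set against all genes. The groups did not overlap for 38 members in the higher direction, as for 18.6% of all genes. Rps21 read 5.45, 5.78 and 5.71 in DKO, above all 3 Bach2 KO arrays, with a difference of 1.52 ± 0.53 (adjusted p = 0.132). Rpl38 had 1.39 ± 0.58 (adjusted p = 0.194). After quantile normalization the median was 0.32 and only Rps12 passed, at 0.56 (adjusted p = 0.0479), where 2.39% of all genes were called higher. The groups then did not overlap for 28 members in the higher direction and 3 in the lower, as for 17% and 18.7% of all genes.

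The interaction asks whether the loss of Bach2 had a different effect with and without Bach1, as the DKO minus Bach1 KO difference less the Bach2 KO minus WT difference. No member passed, where 0.104% of all genes were called higher and 0.571% lower, and 29 members had an unadjusted p under 0.05. The share of all genes under that limit was not counted. The members' median was 0.90, beside 0.09 over all genes, and 0.33 after quantile normalization, where 0.16% of all genes were called higher and no member was. The largest value among ribosomal proteins proper belonged to Rps21, at 2.27 ± 0.75 (adjusted p = 0.218). No single member thus passed for a difference between the 2 backgrounds, and the family as a whole was not tested. The slide of the DKO arrays cannot be told apart from the genotype here.

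Lists of genes that work with the ribosome were read beside the shares over all genes. In Bach2 KO against WT 24.7% of all genes were called lower and 12.4% higher, and 18.3% and 15.7% after quantile normalization. In DKO against WT these shares were 16.6% and 10.6%, and 14.4% and 12.1% after quantile normalization. Of 77 mitochondrial ribosomal proteins tested, which serve the separate ribosomes of mitochondria, 53 were lower and 1 higher in Bach2 KO, with a median of -1.10, and after quantile normalization 30 were lower with a median of -0.60. In DKO against WT 25 were lower, and 11 after quantile normalization. Of 62 ribosome assembly factors, 10 rose and 12 fell in Bach2 KO, with a median of -0.28, but after quantile normalization 15 were higher and 6 lower and the median turned to 0.21. The nucleolar GTPase Gnl3 rose by 1.73 (adjusted p = 0.0035) and Rrs1, which brings 5S rRNA with Rpl5 and Rpl11 into the large subunit, by 1.19 (adjusted p = 0.0023). Mrto4, a factor that holds the place of Rplp0 during assembly, fell by 1.87 (adjusted p = 0.0027), and Bop1 by 1.24 (adjusted p = 0.0049). In DKO 7 assembly factors rose and 0 fell, and 14 rose and 0 fell after quantile normalization.

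Of 14 genes of RNA polymerase I, which makes the large rRNA precursor, 0 rose and 3 fell in Bach2 KO, among them Znrd1 at -2.45 and Cd3eap at -1.62. The median of this list was -0.36 and turned to 0.12 after quantile normalization, where Znrd1 and Cd3eap passed and no other. Of 23 translation factors and other genes whose mRNAs are known to begin with a pyrimidine tract, 12 were lower and 1 higher, with a median of -0.80, but after quantile normalization 3 were lower, 5 higher and the median was 0.08. Eif3k fell by 2.21 and Hnrnpa1 rose by 1.39. Of 14 regulators of ribosomal protein synthesis, 4 rose and 2 fell with a median of -0.13, and after quantile normalization 4 were higher and 1 lower with a median of 0.39. Among them was Rps6kb1, the gene of S6K1, which rose by 1.36 (adjusted p = 0.0025), and Eif4e, the cap-binding protein, which rose by 1.17 (adjusted p = 0.0016). Eif4ebp1 and Eif4ebp3, inhibitors of Eif4e, fell by 0.97 and 1.05, but after quantile normalization Eif4ebp1 had -0.28 and did not pass, and Eif4ebp3 passed at -0.84. In DKO Rps6kb1 and Eif4e rose too, by 1.34 and 1.06. Of 8 genes of ribosome quality control, 1 rose and 3 fell in Bach2 KO, and after quantile normalization 2 were higher and 1 lower.

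For scale, 13 genes often used as expression references had a median of -0.54 in Bach2 KO against WT, with 5 lower and 1 higher. After quantile normalization the median was 0.09, with 2 lower and 4 higher. Actb fell by 0.97 (adjusted p = 0.0072) before quantile normalization and had -0.12 after it. The 13 ribosomal proteins with a pyrimidine tract at the annotated start had a median of -1.39 in Bach2 KO, from -2.44 for Rpl38 to -0.82 for Rps6. The 43 others with a promoter entry had a median of -1.27, and after quantile normalization the medians were -0.49 and -0.34. Because the 43 may hold genes with a tract at a nearby base, these medians do not compare mRNAs with and without a tract.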

How the data were processed

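Each of the 12 mice gave 1 single-colour array, and genotype was taken from the sample titles. The deposited scanner files hold an intensity per spot, background-subtracted and detrended by Agilent Feature Extraction per the file headers (version 10.7.3.1; the submitters' processing notes give 9.1) and not normalized between arrays. The deposited series matrix holds log2 values of 20850 probes with unstated scale; they matched scanner values scaled to the 75th percentile and centred per probe (r from 0.99917 to 0.99962). They served only as an alternative.

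Processed signals were scaled to the 75th percentile of each array and then put on the log2 scale. Outlier spots, 136 to 733 of them on an array, were not used. The filter kept the 30878 of 55681 probes that exceeded background in every array of some genotype. Probes were named through accessions and the RefSeq table of GRCm38.p6, 26413 by 1 gene; unnamed ones were tested by accession. The probe with the highest mean level over all 12 arrays stood for a gene. R 4.3.3 and limma 3.58.1 fitted 1 mean per genotype over all 12 arrays (lmFit, eBayes with trend, 8 residual degrees of freedom), with Benjamini-Hochberg adjustment over all 23124 genes and transcripts. The fit was tested on simulated data. Nothing says more of the samples than that they are separate mice. The number of arrays limits the precision. All 3 same-numbered pairs of DKO and Bach2 KO samples had a small positive r in their deviations, from 0.116 to 0.123. No other pair of groups had every r above 0.1, but replicate 2 of WT and Bach1 KO reached 0.385. The labels state no pairing. The main fit was unpaired, with the replicate number as a block only among the alternatives.

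The members and lists were chosen with earlier results of these data known. Named are the up to 5 members per direction with the largest difference that passed and were well above background on at least 2 arrays of each group, members with a known role, paralog pairs, the 3 brightest and 3 dimmest in WT, and up to 4 genes per related list; others were named after their values were seen. A bound sets the bright group's mean against the lowest signal well above background on each dim array. Alternatives were other scalings (quantile, array median, none, series matrix), normexp (offset 50) computed from median signals, because the files used here hold no mean signal column, other filters and probe rules, slide 1 alone, blocks for the replicate number or (random) for the slide, a threshold of 0.01 and leaving out each array. T cell, B cell, NK cell, neutrophil, eosinophil, dendritic cell, erythroid, epithelial and macrophage markers were read.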

Additional observations from a re-analysis of the deposited data

How the results depend on the processing

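The members' median difference in Bach2 KO against WT stayed negative under all 25 settings tried, from -1.50 to -0.21; leaving out 1 array gave 48 to 80 members lower and 0 to 1 higher. Members lower numbered 24 (2 higher) after quantile normalization, 44 (2 higher) with no scaling, 45 in the series matrix, which holds 52 of the members, 46 (0 higher) on slide 1 alone, 38 (0 higher) at an adjusted p under 0.01, and 15 (0 higher) after quantile normalization without Bach2 KO replicate 3. No member was higher with array median scaling, no filter on dim probes or the mean over a gene's probes. Counted by probe, 144 were lower (22% of all probes) and 2 higher (12.9%). The share of all genes called lower was 24.7% in the main fit and 18.3% after quantile normalization. It was 9.36% with no scaling and 14.3% on slide 1 alone. Where the text gives no share for a setting, its count cannot be set against all genes. The counts by probe, the quantile values without replicate 3 and the scaling to the members were chosen after seeing the data. Quantile normalization turned Rplp0 to 0.013, Rps6 to 0.12, Rpl3 to 0.11 and Rpl13a to 0.065. Without Bach2 KO replicate 3 as well, Rps6 was at 0.11, Rps19 at 0.013, Rpl3 at 0.16, Rpl13a at 0.13 and Rps27l at 0.034. The cause was not tested.

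In DKO against WT the members lower numbered 7 (1 higher) in the series matrix, 2 at an adjusted p under 0.01, 8 (1 higher) by probe, and 2 to 11 without 1 array; 2 were higher after quantile normalization, with or without Bach2 KO replicate 3. In DKO against Bach1 KO they numbered 2 with the filter on all 12 arrays, 2 at an adjusted p under 0.01, and 2 to 6 without 1 array, and 2 (quantile, both ways) or 1 (series matrix, mean of probes, by probe) were higher. In DKO against Bach2 KO 1 was higher after quantile normalization, both ways, in the series matrix and by probe, and 0 to 1 without 1 array. Relative to the family in Bach2 KO, 13 were higher after quantile normalization, 9 higher and 11 lower with the mean of probes, 5 higher and 3 lower on slide 1 alone, and 8 to 27 higher and 2 to 9 lower without 1 array.

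Only in DKO and Bach2 KO did all same-numbered pairs of samples correlate above 0.1 in their deviations; over all 18 pairs r ran from -0.14 to 0.39. In DKO against Bach2 KO the replicate block left 0 members higher and 0 lower, as without it. By their labels, the samples of every comparison share only a number. With the replicate block 73 members were lower and 0 higher in Bach2 KO against WT. Dim probes carry the least certain values: Rpl10l, Rpl3l and Rpl39l lay near background in some groups.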
